A study of Oryza sativa with 4 samples.

Results

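The genes described here are 10 rice genes of trehalose, raffinose and proline metabolism, chosen by identifier out of 55985 genes listed for each library. OsTPP1 (LOC_Os02g44230), OsTPP2 (LOC_Os10g40550) and OsTPP7 (LOC_Os09g20390) are listed as trehalose-6-phosphate phosphatases and OsTPS1 (LOC_Os05g44210) as a trehalose-6-phosphate synthase. LOC_Os03g20120 and LOC_Os07g48830 are listed as galactinol synthases (GolS) and LOC_Os01g07530 as a raffinose synthase (RafS). P5CS1 (LOC_Os05g38150) and P5CS2 (LOC_Os01g62900) are listed as pyrroline-5-carboxylate synthetases and LOC_Os10g40360 as a proline dehydrogenase (ProDH). The deposited tables hold identifiers without names. A RefSeq gene table places 6 of the 10 names (OsTPP1, OsTPP2, OsTPP7, RafS, P5CS1 and P5CS2) on the chromosome of the identifier. It does not hold the other 4 names. Order was compared only with other listed genes placed on the same chromosome. It was kept wherever such a gene existed, but OsTPP2 had none to compare with.

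Polyadenylated RNA was sequenced from pooled shoots (the aerial part) of 15-day seedlings. Nipponbare belongs to the japonica subspecies of rice and 93-11 to indica, and both grew in flooded soil in a greenhouse (28 °C day, 25 °C night). The 4 groups were untreated Nipponbare, Nipponbare chilled at 4 °C (± 1) for 33 h, untreated 93-11, and 93-11 chilled in the same way. Each group is 1 library made from pooled seedlings, so there are no replicates within a group, and the cultivars are the only repetition of the chilling contrast. No genotype other than the cultivar is given in the labels. Harvest time and light are not among the sample labels used here, so their effects and that of cold cannot be told apart. Changes with chilling below are thus differences between chilled and untreated libraries. Library totals, worked out from the values, ran from 12671333 to 16682882 reads, and the 10 genes together took 0.0388 percent of reads in untreated Nipponbare, 0.0606 in chilled Nipponbare, 0.0342 in untreated 93-11 and 0.0567 in chilled 93-11. As a check of the labelled tissue, 4 leaf markers (CAB1R, PORA, RBCS and RCA) summed to 6698 to 36048 RPKM, and 3 root markers (LSI1, LSI2 and HKT2;1) to 1.58 to 8.29, with LSI2 at 0 reads in all libraries but untreated 93-11. The leaf sum was lower in the chilled libraries (9050 and 6698) than in the untreated ones (25669 and 36048), and its part in the results below was not tested. Of the 4, CAB1R (-7.14 ± 0.44, limma adjusted p = 0.000951) and PORA (-6.31 ± 0.29, 0.000687) fell. RBCS (-1.51 ± 0.72, limma adjusted p = 0.143) and RCA (-1.92 ± 0.63, 0.057) did not pass, but both were lower in the chilled library of each cultivar. Of the root markers HKT2;1 fell (-0.80 ± 0.25, limma adjusted p = 0.0496) and LSI2 was not tested. LSI1 did not pass, with log2 ratios of chilled to untreated of -2.0 in Nipponbare and -0.04 in 93-11.

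Trehalose is made in 2 steps: a synthase joins glucose units into trehalose 6-phosphate, and a phosphatase removes the phosphate. Trehalose 6-phosphate is present at very low amounts in plants and is known as a signal of sugar status. Raffinose is made by transferring galactose from galactinol to sucrose, and galactinol synthase makes galactinol from UDP-galactose and myo-inositol. Proline is made mainly from glutamate, with P5CS as the controlling enzyme, and broken down in mitochondria by a pathway that proline dehydrogenase starts. Raffinose and proline are soluble protectants that accumulate in many plants under cold, salt or drought.

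Levels are given as RPKM, reads per kilobase of gene model, divided by library size, scaled between libraries by the trimmed mean of M-values (TMM), so they can be compared between genes per length. Fitted changes are limma estimates ± SE over 4 libraries on the log2(RPKM + 1) scale, which understates the change of genes of low level, with terms for treatment and cultivar and Benjamini-Hochberg adjustment over the 19466 genes tested. Ratios within a cultivar are log2 ratios of scaled reads with 95% intervals that cover counting error only. All 10 genes passed the filter of the test. In bulk tissue, a change in the number of cells that carry a transcript and a change of its amount per cell cannot be told apart.

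Chilling raised 4 of the 10 genes in the limma fit, where 23.6 percent of all tested genes were called higher, and lowered 1, where 22.9 percent were called lower. Together 5 of 10 were called, beside 46.6 percent of all genes tested, a share near the background. The 4 were OsTPP1, OsTPP2, the galactinol synthase LOC_Os07g48830 and RafS, and the gene that fell was OsTPP7. OsTPS1, the galactinol synthase LOC_Os03g20120, P5CS1, P5CS2 and ProDH did not pass. The median change of the 10 was 0.83 log2 units, against -0.06 over all genes tested. The members were chosen with earlier results of these data known, so these counts are descriptions.

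**Figure D1:**
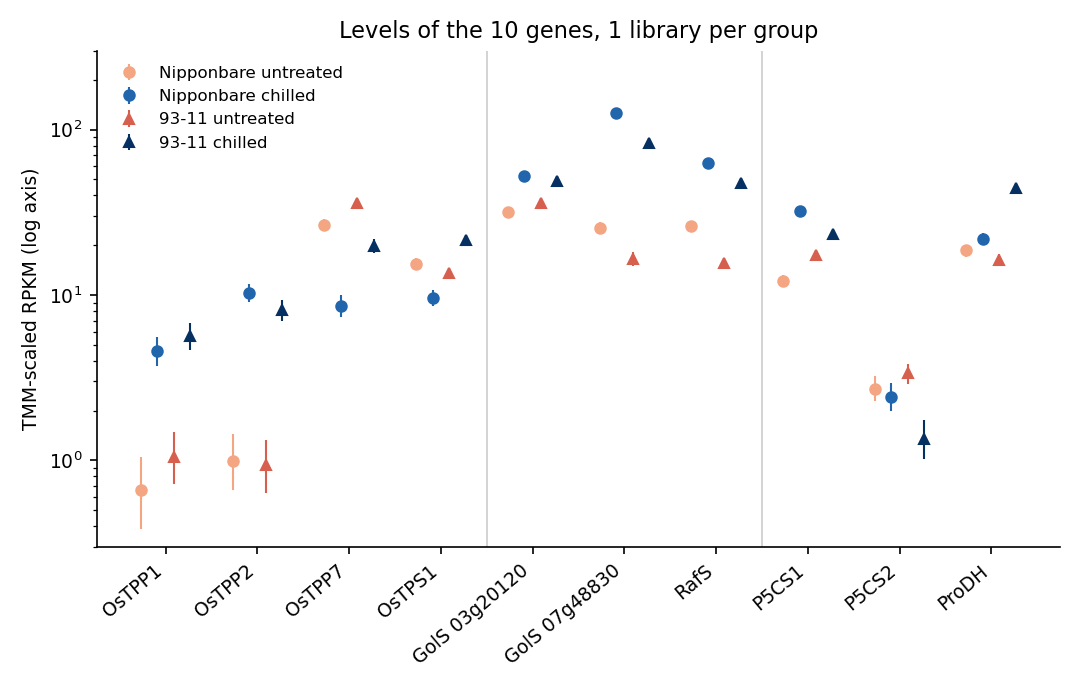
Levels of the 10 genes in each library, as TMM-scaled RPKM on a log axis, with bars for 95% Poisson counting intervals (1 library per group). OsTPP1 and OsTPP2 sit near or below 1.05 RPKM in both untreated libraries and between 4.57 and 10.4 in the chilled ones, while OsTPP7 is higher in each untreated library than in either chilled one.

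Among the trehalose genes, OsTPP1, whose overexpression is known to raise tolerance of salt and cold in rice, was near the lower limit of the data without chilling. It had 17 reads in untreated and 99 in chilled Nipponbare, and 33 in untreated and 118 in chilled 93-11. Its level was 0.658 against 4.57 RPKM in Nipponbare and 1.05 against 5.62 in 93-11. Both chilled libraries lay above both untreated ones, and the counting intervals did not meet. The ratio was 6.77-fold in Nipponbare (log2 2.76, counting interval 2.04 to 3.63) and 5.28-fold in 93-11 (log2 2.40, 1.85 to 3.02). The fitted change was 1.72 ± 0.26 (limma, adjusted p = 0.00661), higher than that of 89.2 percent of genes tested.

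OsTPP2, a second phosphatase with few reads in the untreated libraries, had 28 and 245 reads in untreated and chilled Nipponbare and 32 and 186 in 93-11, or 0.993 against 10.4 RPKM and 0.934 against 8.11 RPKM. Each chilled library again exceeded each untreated one, by 10.3-fold in Nipponbare (log2 3.36, 2.81 to 4.00) and 8.57-fold in 93-11 (log2 3.10, 2.57 to 3.71). With a fitted change of 2.37 ± 0.28 (limma, adjusted p = 0.00323), it had the highest estimate of the 10 genes. The response in 93-11 minus that in Nipponbare was -0.26 (-1.04 to 0.52) for OsTPP2 and -0.36 (-1.28 to 0.56) for OsTPP1, intervals that hold 0.

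OsTPP7, known for tolerance of germination without oxygen in rice, moved the other way. Its level was 26.6 RPKM in untreated and 8.60 in chilled Nipponbare, and 35.9 in untreated and 19.8 in chilled 93-11, from 175 to 1058 reads per library. The untreated libraries were both above the chilled ones, although chilled 93-11 was nearer to untreated Nipponbare than to chilled Nipponbare in RPKM. The fitted change was -1.18 ± 0.27 (limma, adjusted p = 0.0191). That call was lost when values were scaled to reference genes (adjusted p = 0.111) and without the cultivar term (0.118), in a range of 0.0066 to 0.118 over 12 alternatives. The log2 ratio was -1.63 (-1.88 to -1.39) in Nipponbare and -0.86 (-1.03 to -0.69) in 93-11.

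OsTPS1, a synthase reported to be catalytically active in rice, did not pass the test (-0.01 ± 0.36, limma adjusted p = 0.981). Its level was 15.5 RPKM in untreated and 9.58 in chilled Nipponbare, against 13.6 in untreated and 21.4 in chilled 93-11. The chilled libraries were thus the lowest and the highest of the 4. The log2 ratio was -0.69 (-0.88 to -0.50) in Nipponbare and 0.65 (0.50 to 0.80) in 93-11. With TMM scaling, OsTPS1 was the 1 gene of the 10 with ratios of opposite sign in the cultivars. Opposite signs were also seen for ProDH with values as deposited (-0.11 in Nipponbare, 1.21 in 93-11). The same held for P5CS2 when scaled to reference genes (0.17 in Nipponbare, -0.71 in 93-11). Of all genes tested, 4.04 percent had ratios of opposite direction with both intervals away from 0.

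**Figure D2:**
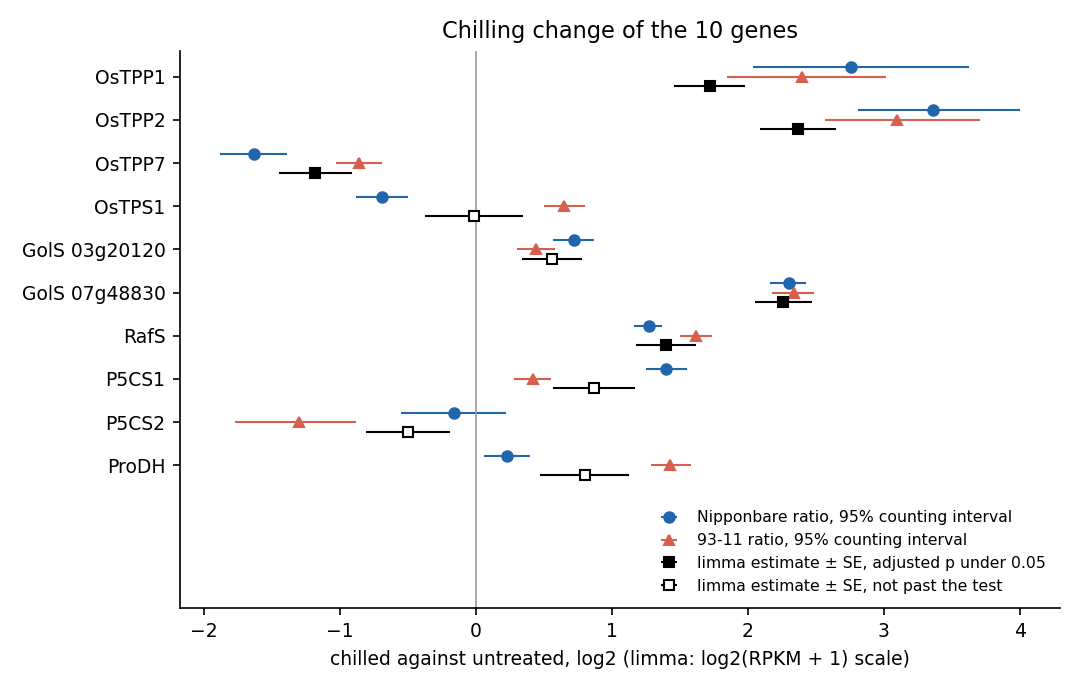
Chilling change of each gene: circles and triangles are log2 ratios of chilled to untreated reads in each cultivar with 95% counting intervals, and squares are limma estimates ± SE over 4 libraries, filled where the adjusted p was under 0.05. The intervals of the cultivars overlap for OsTPP1, OsTPP2, GolS 03g20120 and GolS 07g48830 and lie apart for OsTPP7, OsTPS1, RafS, P5CS1, P5CS2 and ProDH.

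The ratio of OsTPP7 to OsTPP1 or OsTPP2 within a library, which no scaling between libraries can alter, was lower in the chilled library of each cultivar. OsTPP7 was 40.5 times OsTPP1 in untreated Nipponbare and 1.88 times in chilled Nipponbare, a log2 change of -4.39 (-5.16 to -3.62), and in 93-11 it went from 34.1 to 3.52 times (-3.26, -3.84 to -2.68). Against OsTPP2, OsTPP7 went from 26.8 to 0.83 times in Nipponbare (-4.99, -5.60 to -4.38) and from 38.4 to 2.44 times in 93-11 (-3.96, -4.52 to -3.40). OsTPP7 therefore stayed the most abundant of the 3 per length in chilled 93-11, while in chilled Nipponbare its interval (7.37 to 9.97 RPKM) met that of OsTPP2 (9.10 to 11.7). These pairs were picked with the values known.

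A further 6 phosphatase genes whose names the RefSeq table places were listed beside them. OsTPP9 rose (2.05 ± 0.26, limma adjusted p = 0.00388), with 6.16 RPKM in untreated and 34.0 in chilled Nipponbare, and 4.10 and 16.9 in 93-11. OsTPP6 fell (-1.51 ± 0.28, adjusted p = 0.0105), with 48.3 RPKM in untreated and 22.0 in chilled Nipponbare, and 59.0 and 14.8 in 93-11. Both passed under all 12 alternatives. OsTPP4 also fell (-1.32 ± 0.25, adjusted p = 0.0122), with 63 and 9 reads in untreated and chilled Nipponbare and 75 and 12 in 93-11, a call lost with no filter on low values (0.0672). OsTPP3, OsTPP8 and OsTPP10 were below the filter, with at most 31 reads in a library.

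Over these 9 phosphatase genes, OsTPP4, OsTPP6 and OsTPP7 made up 90.3 percent of the summed RPKM in untreated Nipponbare and 38.6 percent in chilled Nipponbare, and 93.7 and 52.8 percent in 93-11. OsTPP1, OsTPP2 and OsTPP9 took 9.04 and 60.6 percent in untreated and chilled Nipponbare, and 5.83 and 45.8 percent in 93-11. These groupings follow the direction of each gene's change and are descriptions. The sum itself was 86.4 RPKM in untreated and 80.8 in chilled Nipponbare, and 104 and 66.7 in 93-11. The sum's log2 ratio kept its negative sign in 93-11 over 5 scalings (-0.87 to -0.05), but in Nipponbare it ran from -0.44 to 0.24, positive when scaled to reference genes.

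**Figure D3:**
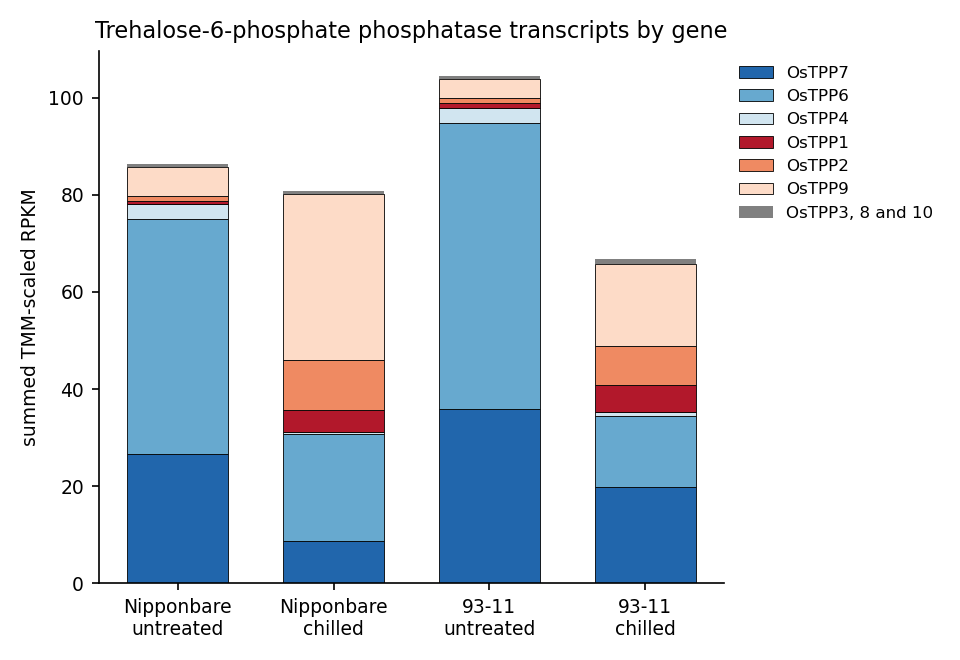
Summed TMM-scaled RPKM of 9 trehalose-6-phosphate phosphatase genes in each library, stacked by gene. Blue genes (OsTPP4, OsTPP6 and OsTPP7) make up 90.3 and 93.7 percent of the untreated bars, and red and orange genes (OsTPP1, OsTPP2 and OsTPP9) 60.6 and 45.8 percent of the chilled bars of Nipponbare and 93-11.

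All 3 raffinose genes had more scaled reads in the chilled library of each cultivar, and 2 of them passed the test. The galactinol synthase LOC_Os07g48830 had 25.6 RPKM in untreated and 126 in chilled Nipponbare, and 16.5 and 83.5 in 93-11, on 441 to 2319 reads. It was the most abundant of the 10 genes in both chilled libraries and stood above 95.2 and 92.3 percent of tested genes there. Its ratio was 4.91-fold in Nipponbare and 5.05-fold in 93-11. With TMM scaling that was the closest match between cultivars among the 10 genes (difference of log2 ratios 0.04, -0.16 to 0.24). The difference was 0.16 with values as deposited and 0.30 when scaled to reference genes, where OsTPP2 was closer (-0.14 and 0.0). The fitted change of LOC_Os07g48830 was 2.26 ± 0.21 (limma, adjusted p = 0.0018).

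The other galactinol synthase, LOC_Os03g20120, was the most abundant of the 10 in both untreated libraries, in 93-11 with an interval that met that of OsTPP7. Its level was 31.7 RPKM in untreated and 52.3 in chilled Nipponbare, and 36.1 in untreated and 49.0 in chilled 93-11. Both chilled libraries were above both untreated ones, by 1.65-fold and 1.35-fold. It did not pass the test (0.56 ± 0.22, limma adjusted p = 0.0843), except when scaled to reference genes (adjusted p = 0.0145, range over alternatives 0.0145 to 0.271). The level of LOC_Os07g48830 over that of LOC_Os03g20120 went from 0.806 to 2.40 in Nipponbare and from 0.457 to 1.70 in 93-11, log2 changes of 1.58 (1.38 to 1.77) and 1.90 (1.69 to 2.10). The order of the pair was thus turned in each cultivar. Reads shared by such related genes could have been split or dropped in the authors' counting, so the values of each are uncertain to that degree.

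RafS, which completes raffinose synthesis, had 1114 and 2251 reads in untreated and chilled Nipponbare and 808 and 1661 in 93-11, or 26.1 against 62.8 RPKM and 15.6 against 47.8 RPKM. The chilled libraries were both above the untreated ones, by 2.41-fold (log2 1.27) and 3.07-fold (log2 1.62). The fitted change was 1.40 ± 0.22 (limma, adjusted p = 0.00713), and it passed under all 12 alternatives, as did OsTPP1, OsTPP2 and LOC_Os07g48830.

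Genes that supply galactinol synthase with its substrates were listed as well. OsUGE1 and OsUGE2, which encode epimerases that turn UDP-glucose into UDP-galactose, rose by 1.97 ± 0.21 (limma, adjusted p = 0.0025) and 0.91 ± 0.21 (0.0214). The level of OsUGE1 was 26.3 RPKM in untreated and 105 in chilled Nipponbare, and 22.9 and 93.8 in 93-11. OsUGE3 had 0.25 ± 0.23 (adjusted p = 0.41). RINO1, which encodes the inositol-phosphate synthase that starts myo-inositol synthesis, rose by 2.60 ± 0.55 (limma, adjusted p = 0.0159), a call lost without the cultivar term (0.0615). Its level was 109 RPKM in untreated and 1460 in chilled Nipponbare, and 129 and 363 in 93-11, log2 ratios of 3.74 and 1.49. The untreated libraries were close together, and chilled Nipponbare stood far above chilled 93-11.

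None of the 3 proline genes passed the limma test. At an unadjusted p under 0.05 in limma there was 1 of them (P5CS1), beside 10731 of the 19466 genes tested. With voom weights on whole reads limma called 2 (P5CS1 and ProDH), where it called 5211 of all genes tested higher and 4976 lower. P5CS1 had 12.1 RPKM in untreated and 32.1 in chilled Nipponbare, and 17.4 and 23.2 in 93-11. Both chilled libraries were above both untreated ones, but the step was 2.64-fold in Nipponbare (log2 1.40, 1.25 to 1.55) and 1.34-fold in 93-11 (log2 0.42, 0.28 to 0.55). The fitted change was 0.87 ± 0.30 (limma, adjusted p = 0.0637, range over alternatives 0.0154 to 0.137, passed in 3 of 12).

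ProDH, the catabolic gene, showed the reverse order of cultivars. Its level was 18.6 RPKM in untreated and 21.8 in chilled Nipponbare, and 16.3 in untreated and 44.1 in chilled 93-11. Chilled 93-11 stood apart from the other 3 libraries. The log2 ratio was 0.23 (0.06 to 0.40) in Nipponbare and 1.43 (1.29 to 1.58) in 93-11, and the ratio in Nipponbare turned to -0.11 with values as deposited. The fitted change was 0.80 ± 0.33 (limma, adjusted p = 0.103, range over alternatives 0.0442 to 0.263, passed in 2 of 12).

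P5CS2 was low throughout, at 2.72 RPKM in untreated and 2.43 in chilled Nipponbare, and 3.36 in untreated and 1.35 in chilled 93-11, on 55 to 204 reads. Chilled 93-11 was the lowest library. Its log2 ratio was -0.16 (-0.55 to 0.22) in Nipponbare and -1.30 (-1.77 to -0.88) in 93-11, and the fitted change did not pass (-0.50 ± 0.31, limma adjusted p = 0.238). Per length, P5CS1 was 4.46 and 5.18 times P5CS2 in untreated Nipponbare and 93-11, and 13.2 and 17.2 times in the chilled libraries.

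Set against each other within a library, the ratio of the synthesis gene P5CS1 to the breakdown gene ProDH moved in opposite directions in the cultivars. In Nipponbare the level of P5CS1 over that of ProDH went from 0.653 untreated to 1.47 chilled, a log2 change of 1.17 (0.95 to 1.40). In 93-11 it went from 1.07 to 0.527, a log2 change of -1.02 (-1.22 to -0.82). The intervals lie on either side of 0 and do not depend on the scaling, but they cover counting error only, and with 1 pool per group the difference between cultivars has no replicate check.

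**Figure D4:**
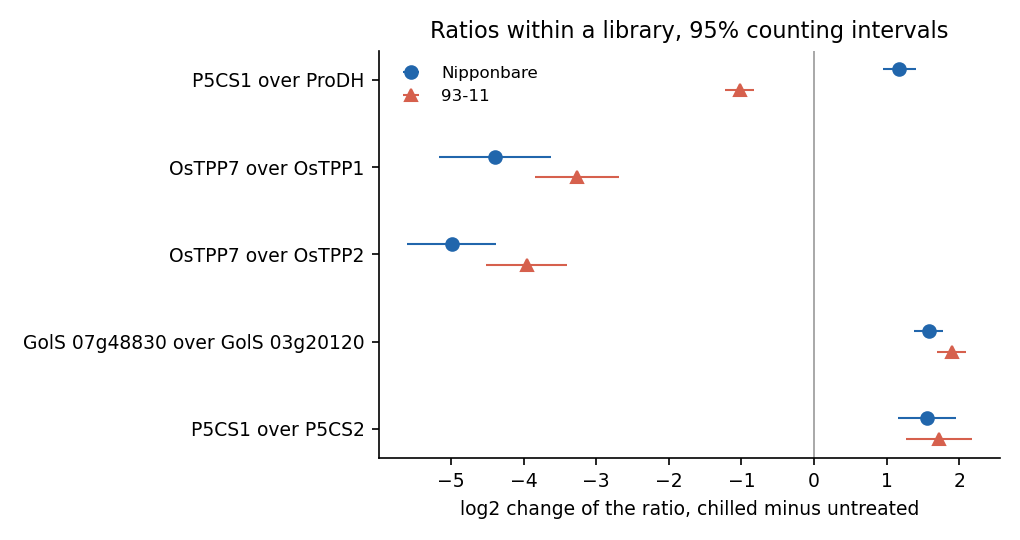
Log2 change with chilling of the ratio between pairs of genes within a library, for each cultivar, with 95% counting intervals. Both cultivars are on the same side of 0 for 4 pairs and on opposite sides for P5CS1 over ProDH (1.17 in Nipponbare and -1.02 in 93-11).

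By size alone, 5 of the 10 genes were higher beyond 2-fold in chilled than in untreated Nipponbare (19.2 percent of all genes tested) and 1 was lower (17.5 percent), counting a gene where its whole interval lay beyond 2-fold. In 93-11, 5 were higher (19.6 percent) and 0 lower (16.8 percent). OsTPP1, OsTPP2, LOC_Os07g48830 and RafS were in both higher lists. P5CS1 was the fifth in Nipponbare, and ProDH the fifth in 93-11. OsTPP7 was the gene lower in Nipponbare. With values as deposited the higher count in Nipponbare was 3, and 1 gene was lower in 93-11. The percentages over all genes were worked out with TMM scaling only.

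The response differed between cultivars beyond 2-fold by size for 1 gene, OsTPS1, which was higher in 93-11 (difference 1.34, 1.10 to 1.58), where 3.53 percent of all genes were higher in 93-11 and 2.63 percent lower. ProDH fell just short of that limit (1.21, 0.98 to 1.43), and passed it with values as deposited and when scaled to reference genes. P5CS1 (-0.98, -1.19 to -0.78) and P5CS2 (-1.14, -1.71 to -0.58) had lower responses in 93-11 with intervals that reached inside 2-fold. OsTPP7 had 0.77 (0.48 to 1.06), RafS 0.35 (0.19 to 0.51) and LOC_Os03g20120 -0.28 (-0.48 to -0.08). No test of these differences was possible, since the fit leaves no degree of freedom for them.

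Averaged over both treatments, 0 of the 10 genes differed between the cultivars in the limma fit, where 5.87 percent of all genes did (1.66 percent higher and 4.21 percent lower in 93-11), and 0 did with voom weights. At an unadjusted p under 0.05 in limma there were 2, beside 3429 of the 19466 genes tested. OsTPP7 was higher in 93-11 by 0.77 ± 0.27 (limma, adjusted p = 0.227), and LOC_Os07g48830 had -0.59 ± 0.21 (adjusted p = 0.232). RafS had -0.55 ± 0.22 (adjusted p = 0.294). In these last 2, Nipponbare exceeded 93-11 under each treatment, and for OsTPP7 93-11 exceeded Nipponbare under each. Both cultivars were counted on the same gene identifiers, and the genome that 93-11 was aligned to is not given. A cultivar difference in expression and one in read mapping therefore cannot be told apart here.

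The order of levels was as follows. In untreated Nipponbare it ran from LOC_Os03g20120 (31.7 RPKM) over OsTPP7, RafS and LOC_Os07g48830, whose neighbouring intervals overlapped, to ProDH, OsTPS1, P5CS1, P5CS2 and finally OsTPP2 and OsTPP1 (0.658), whose intervals overlapped. In untreated 93-11, LOC_Os03g20120 (36.1) and OsTPP7 (35.9) led with overlapping intervals, and P5CS1, LOC_Os07g48830, ProDH, RafS and OsTPS1 followed, each overlapping its neighbour, from 17.4 to 13.6 RPKM. In chilled Nipponbare, LOC_Os07g48830 (126), RafS, LOC_Os03g20120, P5CS1 and ProDH came apart in that order, while OsTPP2, OsTPS1 and OsTPP7 (10.4 to 8.60) overlapped in turn. In chilled 93-11, LOC_Os07g48830 (83.5) was followed by LOC_Os03g20120, RafS and ProDH (49.0 to 44.1), which overlapped in turn, and by P5CS1, OsTPS1 and OsTPP7 (23.2 to 19.8), which did too. P5CS2 was the lowest of the 10 in both chilled libraries, at 2.43 and 1.35 RPKM.

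Of 29 other genes listed for these pathways, 21 passed the filter, 10 rose, 5 fell and 6 did not pass the test (median change 0.84). Over all genes tested, 23.6 percent rose and 22.9 percent fell (median -0.06), so the share of the list that fell was near the background. In the trehalose list, 7 of 10 tested rose and 2 fell (median 1.79). In the raffinose list, 3 of 5 rose and 1 fell (median 0.91). In the proline list, 0 of 6 rose and 2 fell (median -0.05). OAT, which makes the same intermediate as P5CS from ornithine, had 0.77 ± 0.26 (limma, adjusted p = 0.0577, range up to 0.14) and passed under 5 of 12 alternatives. For 13 of the 21 the RefSeq table did not place the name on the chromosome of the identifier. Either no symbol was sought, the symbol was not in that table or it lay on another chromosome there. They are counted without a name. These included 7 trehalose loci, of which 6 rose and 0 fell (median 2.07), and 5 proline loci, of which 0 rose and 2 fell (median -0.46). Among the 13, LOC_Os08g34580 (3.64 ± 0.27) and LOC_Os02g54820 (3.13 ± 0.22) had the largest rises, and LOC_Os01g68050 (-3.20 ± 0.29) and LOC_Os07g01090 (-2.73 ± 0.27) the largest falls. The 6 trehalose loci that rose were all listed as of trehalose-6-phosphate synthase type, for which no symbol was sought. LOC_Os01g68050 and LOC_Os07g01090 were listed as proline transporters, not as enzymes. The RefSeq table holds the symbol of LOC_Os01g68050 on another chromosome and does not hold that of LOC_Os07g01090. Another locus listed as a proline transporter went the other way (0.84 ± 0.32) but did not pass (limma, adjusted p = 0.084).

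**Figure D5:**
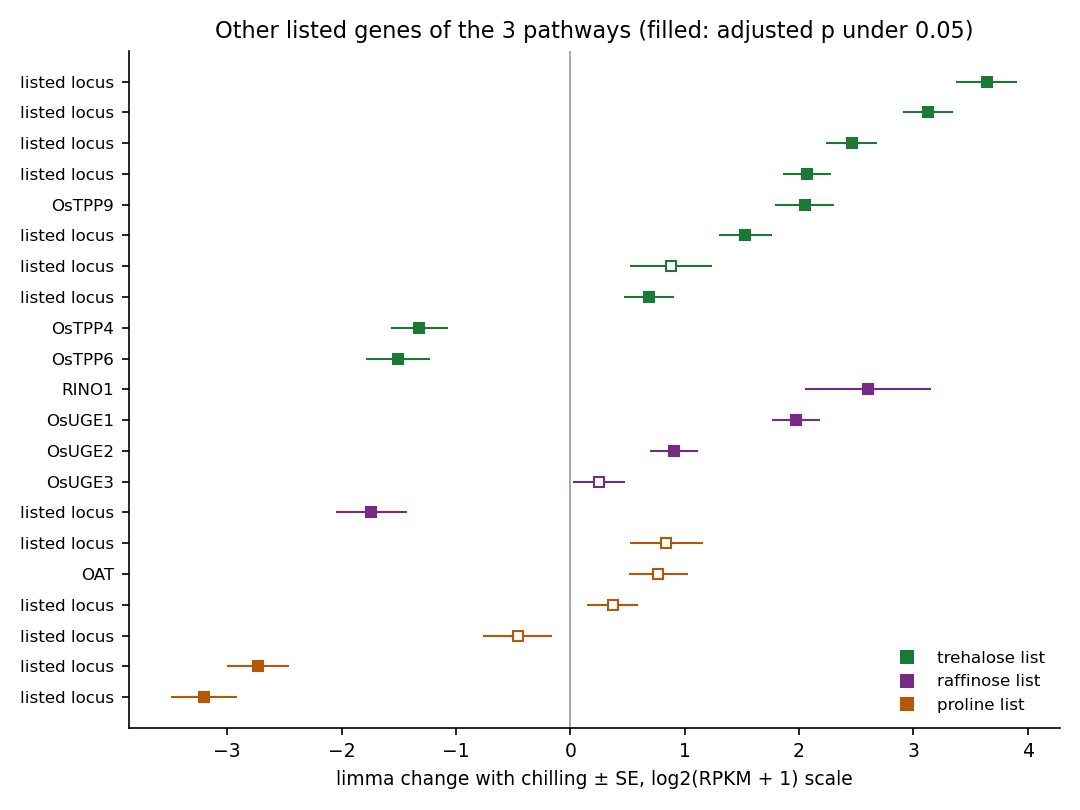
Limma change with chilling ± SE (log2(RPKM + 1) scale) for the 21 tested genes listed beside the 10, by pathway, with filled squares for adjusted p under 0.05 and "listed locus" where the RefSeq table did not place the name. Trehalose genes lie mostly to the right of 0 apart from OsTPP4 (-1.32) and OsTPP6 (-1.51). The largest falls, -3.20 and -2.73, are in the proline list, at loci listed as transporters, while another locus so listed has 0.84 (not filled).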

How the data were processed

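The authors deposited 1 RPKM value per gene and library. Per the submitters' processing notes, which state no role or order, the tools were HTSeq 0.5.4p3, TopHat2 2.0.9 and Bowtie2 2.0.6. Build, annotation, strand use and the genome that 93-11 was aligned to: not given in the sources used here. Reads of overlapping or antisense genes therefore cannot be told apart. Whole reads were worked out from the RPKM steps for 36941 of 36941 genes above 0 (known up to a common whole factor, and summing to 97.7 to 98.1 percent of the totals). With totals shifted by up to 1 or 2 percent, 0 of 500 genes could be solved.

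The design had assumed no other unit. Genes that reached 1 RPKM in 2 or more libraries were scaled by TMM (trimming 0.3 of ratios and 0.05 of intensities) and tested on log2(RPKM + 1) by limma (version 3.58.1, under R 4.3.3) with its trend option, called at an adjusted p under 0.05. The fit has 1 residual degree of freedom and a prior worth 4.26, so an SE rests mostly on genes of similar level. The residual degree of freedom is the difference between the cultivars in their chilling response. A p-value therefore weighs an estimate against that difference, moderated by the prior. OsTPS1, with opposite ratios in the cultivars, had an SE of 0.36, and LOC_Os07g48830, with matching ratios, 0.21. With 1 pool per group, spread between pools, which may be technical, cannot be told apart from it. Log2 ratios add 0.5 reads and carry exact conditional binomial (Clopper-Pearson) intervals, differences Wald intervals and levels Poisson intervals. PCR copies are not independent molecules, so intervals cover counting error only. The steps were run on simulated data with changes put into a small set of genes and no cultivar-specific response. In these data 46.6 percent of genes were called, so that run does not check the scaling or fit under such a spread.

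The members, lists and pairs were chosen with earlier results of these data known. Named genes were all 10 members and the listed pathway genes past the test, limited to 4 identifiers among tested genes whose names were not placed by the RefSeq table (GCF_034140825.1 ASM3414082v1, which holds 0 of the files' identifiers). OsUGE3, OAT, the low phosphatase genes and LOC_Os08g31980 were named outside that rule, after their values were seen. 1 further locus listed was not analysed here. Promoter motifs were not run, since no sequences were used here. Alternatives were 4 other scalings, a pseudocount of 0.1, no filter, no cultivar term, no trend, voom on whole reads and, added after seeing the data, TMM with each other library as reference.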

Additional observations from a re-analysis of the deposited data

Results flagged for a closer look

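OsTPS1 was lower in chilled than in untreated Nipponbare (log2 ratio -0.69) and higher in chilled than in untreated 93-11 (0.65), so the single library pair of each cultivar moved in opposite directions. The level of P5CS1 over that of ProDH likewise changed by 1.17 log2 units in Nipponbare and by -1.02 in 93-11. Neither difference between cultivars was tested, since each group is 1 library.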

How the results depend on the processing

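The alternatives scaled, filtered or modelled the same 4 libraries in other ways, and leaving out a library leaves no degree of freedom. The median change of all genes moved by -0.21 with values as deposited and by 0.36 when scaled to reference genes, and the share of calls that were higher was 39.7 and 70.6 percent, against 50.7. ACT1, 1 of the 3 reference genes, itself fell by 1.27 with TMM (limma, adjusted p = 0.00786). Over all genes tested, the number called lower with chilling was 2500 with reference genes and 2742 without the cultivar term, against 4464. The number differing between cultivars (324 higher and 819 lower in 93-11) was 682 and 1249 with voom, 82 and 294 with no filter, and 0 and 0 without the treatment term, where 1240 had an unadjusted p under 0.05 in limma. The number of the 10 genes that rose was 7 in place of 4 when scaled to reference genes, where 6012 of all genes tested rose in place of 4599. The number of the 10 that fell was 0 in place of 1 with reference genes and without the cultivar term. The change of OsTPS1 turned to 0.04 with upper quartile scaling and with median of ratios scaling, 0.43 with reference genes, 0.01 with voom and 0.00 with TMM against untreated Nipponbare. The cultivar differences of LOC_Os03g20120 (GolS 03g20120) and P5CS1 turned to -0.01 and -0.03 with values as deposited, and the ProDH ratio in Nipponbare to -0.11. The P5CS2 ratio in Nipponbare turned to 0.17 when scaled to reference genes. With values as deposited 3 genes in place of 5 were higher beyond 2-fold in Nipponbare, 1 in place of 0 was lower in 93-11, and 2 in place of 1 had a higher response in 93-11, also 2 when scaled to reference genes. The cause was not tested. Genes beyond 2-fold were counted over all genes tested with TMM scaling only. Counts for the pathway list stayed within 1.5 times. The cultivar term made the chilling fit a comparison within cultivars, and the labels give no replicate numbers for a further block. OsTPP1 and OsTPP2 rest on 17 to 33 reads in the untreated libraries, which sets the width of their intervals.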

Other observations

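One locus of the trehalose list without a checked name, LOC_Os08g31980, was below the filter of the test in 3 of the 4 libraries. It had 14 reads in untreated and 18 in chilled Nipponbare, and 31 in untreated and 318 in chilled 93-11. Its log2 ratio was 0.60 in Nipponbare and 3.92 in 93-11. This locus was chosen after its values were seen, and the difference was not tested.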
